A study of Mus musculus with 6 samples.

Results

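The 44 genes described here encode the machinery that copies DNA: the proteins that license origins, the MCM2-7 helicase, the factors that fire origins, the sliding clamp and its loader, the polymerases and primase, the proteins that coat single-stranded DNA and finish Okazaki fragments, and the enzymes that supply nucleotides. They were taken by gene symbol from this functional list, a rule that uses no measured value, although the list was drawn up with earlier results of these data known. Of the 44 genes, 41 had a probe on the array (68 probes, of 25697 probes for 16593 genes in all), while Gins1, Gins2 and Rfc3 had none and were not measured here. The arrays were Illumina mouse-8 V2 expression BeadChips, 1 for each of 6 cultures. They were the iPS cell lines #4 and #7, made from fetal fibroblasts of FAH-/- mice with retroviral Oct4, Sox2, Klf4 and c-Myc, the gene-corrected derivatives #7.1 and #7.2, subclones of line #7 that carry a lentiviral FAH cDNA linked to EGFP under the viral SFFV promoter, the OG2 ES cells, which carry an Oct4-GFP reporter and have no FAH genotype in the labels, and FAH-/- MEFs, mouse embryonic fibroblasts. FAH encodes fumarylacetoacetate hydrolase, the last enzyme of tyrosine breakdown. Since 3 of the 4 iPS cell lines descend from line #7, p-values measure the spread between these cultures and not between independently reprogrammed lines.

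Replication is prepared in G1 phase, when the origin recognition complex, Cdc6 and Cdt1 load MCM2-7 rings onto DNA, and geminin then blocks further loading. In S phase the kinase Cdc7 with its activator Dbf4 and the factors Cdc45, GINS and Mcm10 turn the loaded rings into the active helicase, and PCNA keeps the polymerases on the template. Many of these genes are transcribed under E2F transcription factors as cells enter S phase, and mouse ES cells are known for a short G1 phase and a large share of cells in S phase.

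RefSeq promoter windows of build GRCm38.p6 (250 bases before to 50 after the start site) matched 36 of the 44 genes, and Gmnn, Mcm4, Gins1, Gins2, Gins4, Rfc2, Pole and Prim2 were not matched. Forms of the E2F motif were searched on both strands, spelled TTCCCGC or with other letters in the middle, that is TTGGCGC as another form, TTCGCGC as a further form and TTGCCGC as the last. At least 1 of them stood in the windows of 22 of the 36 genes, or 61.1%, against 10.9% of the 27025 genes with a window. Windows of the 4 genes with the largest difference between the iPS cell lines and MEFs among those with such a string, and of Orc3, the gene with the smallest difference among them, are shown because they set the strings beside opposite ends of the measured range. Capitals mark the E2F strings, and each window reads 5′ to 3′ on the strand of its gene.
Cdt1, chr8:122567765-122568064, plus strand: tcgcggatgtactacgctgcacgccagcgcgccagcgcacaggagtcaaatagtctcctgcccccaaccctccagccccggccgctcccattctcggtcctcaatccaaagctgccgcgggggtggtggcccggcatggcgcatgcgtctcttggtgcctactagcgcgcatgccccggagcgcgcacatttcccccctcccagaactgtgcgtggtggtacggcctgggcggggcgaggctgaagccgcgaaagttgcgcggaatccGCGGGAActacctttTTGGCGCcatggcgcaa
Mcm5, chr8:75109259-75109558, plus strand: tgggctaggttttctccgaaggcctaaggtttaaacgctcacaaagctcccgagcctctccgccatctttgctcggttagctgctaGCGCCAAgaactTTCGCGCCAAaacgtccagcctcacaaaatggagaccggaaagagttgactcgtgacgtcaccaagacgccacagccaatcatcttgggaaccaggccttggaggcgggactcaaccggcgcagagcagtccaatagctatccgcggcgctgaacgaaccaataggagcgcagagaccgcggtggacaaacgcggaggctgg
Mcm3, chr1:20820263-20820562, minus strand: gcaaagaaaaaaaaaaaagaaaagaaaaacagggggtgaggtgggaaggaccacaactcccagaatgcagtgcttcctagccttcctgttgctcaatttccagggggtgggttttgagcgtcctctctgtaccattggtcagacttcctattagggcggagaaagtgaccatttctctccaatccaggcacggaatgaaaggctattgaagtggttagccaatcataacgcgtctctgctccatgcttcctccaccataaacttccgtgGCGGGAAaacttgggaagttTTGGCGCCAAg
Rpa2, chr4:132768110-132768409, plus strand: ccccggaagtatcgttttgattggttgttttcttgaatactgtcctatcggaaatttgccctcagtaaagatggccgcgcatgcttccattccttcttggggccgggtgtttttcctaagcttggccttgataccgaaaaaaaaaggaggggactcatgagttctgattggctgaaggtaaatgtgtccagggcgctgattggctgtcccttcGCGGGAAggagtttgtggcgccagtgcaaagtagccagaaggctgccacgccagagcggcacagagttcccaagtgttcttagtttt
Orc3, chr4:34614893-34615192, minus strand: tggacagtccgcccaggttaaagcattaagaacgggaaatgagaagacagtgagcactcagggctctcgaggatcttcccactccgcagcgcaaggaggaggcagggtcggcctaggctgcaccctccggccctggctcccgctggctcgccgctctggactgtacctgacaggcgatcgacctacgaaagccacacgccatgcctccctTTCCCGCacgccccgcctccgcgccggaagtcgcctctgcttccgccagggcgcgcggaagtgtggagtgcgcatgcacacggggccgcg

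Cdt1, Mcm3 and Mcm5 held more than 1 string, and in Mcm3 and Mcm5 strings read from opposite strands shared bases. The window of Orc3 held a string as well, although its signal was not higher in the iPS cell lines. Of the members called higher in iPS cells, 14 of 27 with a window held a string, and of the other members 8 of 9 did, among them Orc4, Prim1, Rpa3 and Rrm1 as well as Orc1, Pola1 and Rfc3, which were not tested. Mcm2, Mcm10, Dbf4 and Rfc5 were called higher and held none of these letters in their windows. The CCAAT box (CCAAT) stood in 61.1% of the matched members against 41.1% of all genes, the GC box (GGGCGG) in 75% against 38.2%, and the CHR element (TTTGAA) in 16.7% against 20.2%. A GC box can share bases with TTCCCGC read from the opposite strand. These are matches of letters and not measured binding sites.

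**Figure D1:**
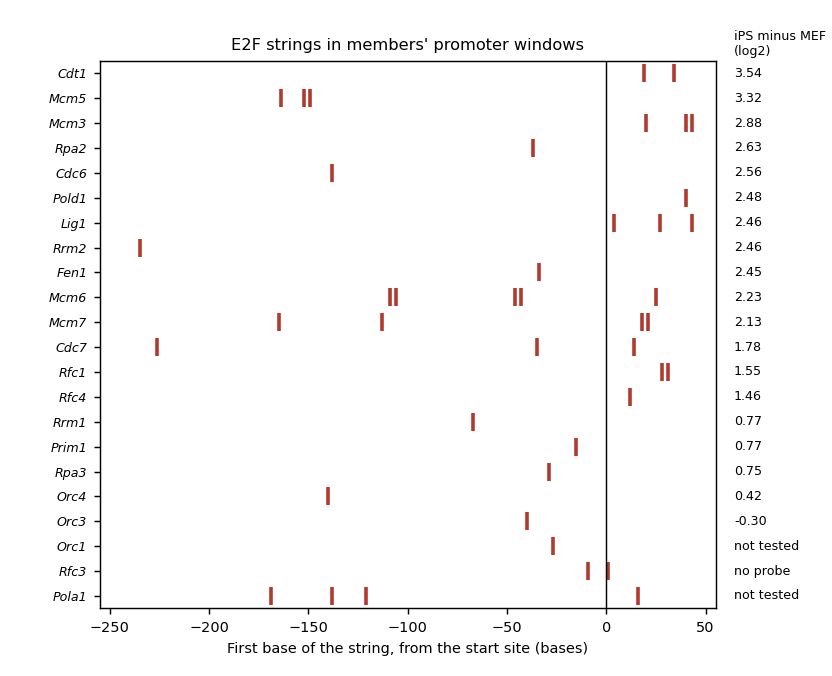
Position of the first base of each E2F string, in bases from the start site, in the promoter windows of the 22 members that hold one, ordered by the log2 difference between the iPS cell lines and MEFs given at the right. Strings lie on both sides of the start site, and members with and without a higher signal in iPS cells hold them.

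Between 45.8% and 48.6% of the probes on each array were above background, that is, above the array's background signal by 2.33 SDs of its noise. Of the 41 measured members 36 were above background on all 6 arrays. The probes of Orc1, the largest subunit of the origin recognition complex, and of Pola1, the catalytic subunit of polymerase alpha, were above background on none, so 39 members were tested. Orc2 and Gmnn were above background in pluripotent cells and not in MEFs. The labels were checked with marker genes. The pluripotency factors Pou5f1 and Nanog were higher in iPS cells than in MEFs, by a measured log2 difference of 6.07 (at least 58.2-fold, since Pou5f1 was not above background in MEFs) and of 5.13, while the collagen genes Col1a1 and Col1a2 were lower, by -5.57 and -6.19 (for Col1a2 at least 62.6-fold). Fah itself had 7.12 and 7.00 in the gene-corrected lines #7.1 and #7.2, against 7.12 and 7.25 in the uncorrected lines #4 and #7, 8.91 in ES cells and a level not above background in MEFs. Its probe therefore did not separate gene-corrected from uncorrected lines, and where it lies relative to the transferred cDNA or the disrupted allele is not known here, so it does not check these labels.

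Replication genes were broadly higher in iPS cells than in the fibroblasts they came from. Of the 39 tested members, 31 were called higher (limma adjusted p under 0.05 and at least 2-fold) and 0 lower. Of these 31, all but Gmnn were above background in MEFs as well. Among all 10681 genes tested, 13.1% were called higher and 13% lower. With median scaling in place of quantile normalization, 29 members were called higher, and the split over all genes was 1050 higher and 1846 lower, against 1404 higher and 1389 lower with quantile normalization. The median log2 difference of the members was 1.81 and that of all genes 0.03. All 4 iPS cell lines lay above the MEF array for 38 of the 39 members, against 41.3% of all tested genes. The exception was Orc3, while Orc2 and Gmnn, among the 38, entered the test only through the pluripotent arrays. This count holds for the probe used, since lines #4 and #7.1 lay below the MEF array on another probe of Orc4 and of Tyms. Among genes above background on every array, 30 of 36 members were called higher, against 1172 of 6649 genes. In 17 members the difference was at least 4-fold, against 2.85% of all genes called higher by that much, and in 4 (Mcm10, Cdt1, Mcm5 and Mcm2) at least 8-fold, against 0.889% of all genes. In bulk RNA, fewer cells of a type and less RNA per cell cannot be told apart. All values below are normalized log2 signals unless they are named as differences, and signals of different genes are not compared because each probe has its own brightness.

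**Figure D2:**
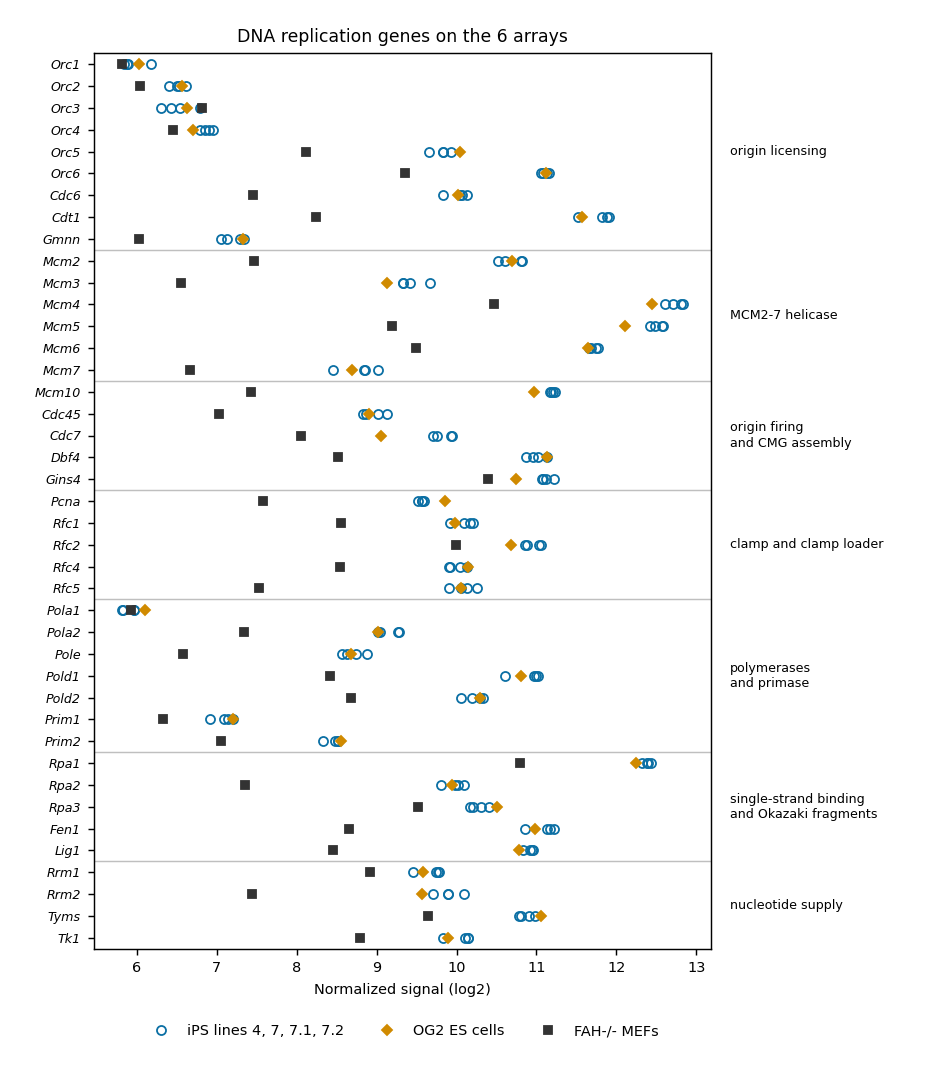
Normalized log2 signal of the 41 measured members, by role, in iPS cell lines #4, #7, #7.1 and #7.2 (circles), OG2 ES cells (diamonds) and FAH-/- MEFs (squares), 1 array each. For most genes the iPS cell lines and ES cells lie together and to the right of the MEFs, while Orc1 and Pola1 lie near background on all arrays.

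**Figure D3:**
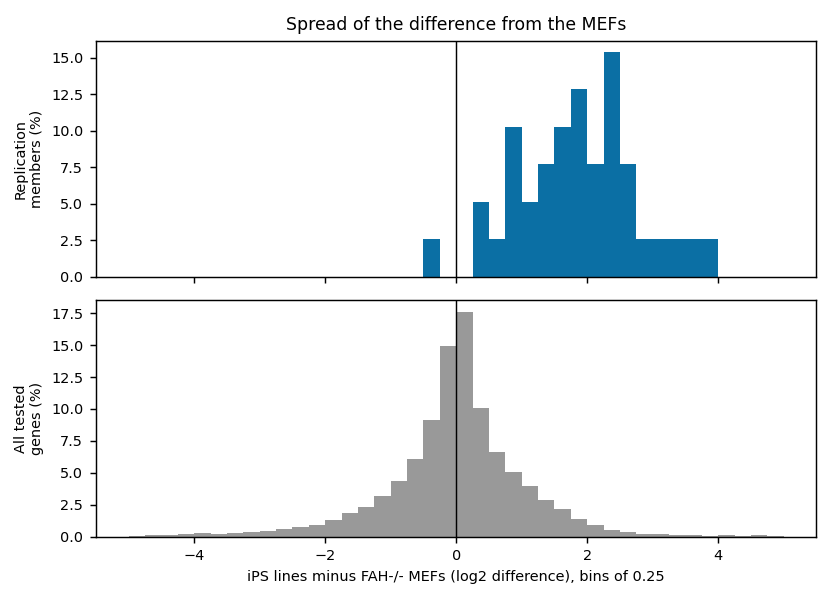
Percentage of the 39 tested members (top) and of all 10681 tested genes (bottom) in bins of the log2 difference between the iPS cell lines and MEFs. The members lie to the right of 0 except for Orc3, and all genes center near 0. Bins beyond 5 on either side are not drawn.

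Among the licensing genes 5 of 8 tested members were higher in iPS cells, and their median log2 difference was 1.43 (1.298 with Orc2 and Gmnn set at their bounds). Cdt1, which brings MCM2-7 to origins, had a signal of 11.52, 11.88, 11.91 and 11.82 in lines #4, #7, #7.1 and #7.2, against 11.56 in ES cells and 8.24 in MEFs. Its difference from MEFs was 3.54 (SE 0.17, adjusted p = 1.2e-08 from limma), or 11.6-fold. Every pluripotent array lay far above the MEFs, and ES cells lay inside the range of the iPS cell lines. Cdc6, the ATPase that acts with Cdt1, had 9.83, 10.13, 10.04 and 10.07 in the iPS cell lines, 10.02 in ES cells and 7.46 in MEFs, a difference from MEFs of 2.56 (SE 0.15, adjusted p = 7.3e-08 from limma). Orc6, a subunit of the origin recognition complex, had 11.05, 11.08, 11.16 and 11.13 in the iPS cell lines, 11.11 in ES cells and 9.35 in MEFs. Orc5, another subunit, had 9.94, 9.66, 9.83 and 9.83 in the iPS cell lines, 10.04 in ES cells and 8.12 in MEFs. For both genes every iPS cell line lay above the single MEF array, with a difference of 1.76 for Orc6 and 1.69 for Orc5. The remaining subunits with signal, Orc2, Orc3 and Orc4, were not called. Orc3 had 6.30, 6.43, 6.79 and 6.54 in the iPS cell lines, 6.62 in ES cells and 6.81 in MEFs, a difference of -0.30 (SE 0.18, adjusted p = 0.19 from limma). Orc4 differed by 0.42 (adjusted p = 0.022 from limma), below 2-fold. On its other probe, also above background on every array, Orc4 differed by 0.04, and lines #4 and #7.1 lay below MEFs. Orc2 was at least 1.16-fold higher than in MEFs. Gmnn, which encodes geminin, was called with a measured difference of 1.18 (adjusted p = 4.1e-05 from limma), but since MEFs were not above background this stands for at least 1.87-fold. The dim signals of Orc2, Orc3, Orc4 and Gmnn carry a compressed scale, because the offset of 50 added at background correction shrinks differences of dim probes.

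All 6 genes of the MCM2-7 helicase were higher in the iPS cell lines, with a median log2 difference of 2.58. Mcm5 had 12.42, 12.57, 12.58 and 12.48 in the iPS cell lines, 12.11 in ES cells and 9.20 in MEFs. Its difference from MEFs was 3.32 (SE 0.14, adjusted p = 4.9e-09 from limma), or 9.99-fold. Mcm2, whose subunit also binds histones, had 10.60, 10.51, 10.82 and 10.80 in the iPS cell lines, 10.69 in ES cells and 7.46 in MEFs, a difference of 3.22 (SE 0.16, adjusted p = 1.5e-08 from limma). The gap to MEFs was many times the range of the iPS cell lines in both genes. Mcm3 had 9.32, 9.33, 9.42 and 9.67 in the iPS cell lines, 9.13 in ES cells and 6.55 in MEFs, a difference of 2.88. Mcm4 had 12.60, 12.71, 12.84 and 12.81 in the iPS cell lines, 12.45 in ES cells and 10.46 in MEFs, a difference of 2.28. Mcm7 had the smallest difference of the 6, at 2.13 (SE 0.19, adjusted p = 1.9e-06 from limma), with 8.45, 8.84, 8.86 and 9.02 in the iPS cell lines, 8.69 in ES cells and 6.66 in MEFs. It also varied most among the iPS cell lines, and line #4 was the lowest. Mcm6 differed by 2.23. The helicase genes thus lay between 2.13 and 3.32 above MEFs on the normalized log2 scale. Mcm3 and Mcm7 were dim in MEFs, which compresses their differences, so the rank of Mcm7 may not hold for RNA.

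Of the 5 measured genes of origin firing, 4 were higher, with a median difference of 1.93 over the 5. Mcm10, a scaffold of the initiating fork, showed the largest difference of all members, 3.77 (SE 0.13, adjusted p = 1.4e-09 from limma), or 13.7-fold. Its signal was 11.21, 11.17, 11.23 and 11.18 in the iPS cell lines, 10.97 in ES cells and 7.42 in MEFs. The 4 iPS cell lines were closer together for Mcm10 than for any other tested member. Dbf4, the activator of Cdc7, had 11.13, 10.87, 10.95 and 11.02 in the iPS cell lines, 11.13 in ES cells and 8.51 in MEFs, a difference of 2.48. Cdc45, a subunit of the active helicase, had 8.87, 9.01, 9.13 and 8.82 in the iPS cell lines, 8.90 in ES cells and 7.02 in MEFs, a difference of 1.93. Cdc7, the kinase itself, had 9.93, 9.94, 9.75 and 9.71 in the iPS cell lines, 9.05 in ES cells and 8.05 in MEFs, a difference from MEFs of 1.78 (SE 0.15, adjusted p = 1.1e-06 from limma). For Cdc7, unlike Dbf4, ES cells lay between the iPS cell lines and MEFs. Gins4, a GINS subunit, had 11.22, 11.12, 11.07 and 11.08 in the iPS cell lines, 10.74 in ES cells and 10.40 in MEFs, a difference of 0.72 (adjusted p = 0.00081 from limma) that stayed below 2-fold.

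For the sliding clamp and its loader, 4 of 5 tested genes were higher, with a median difference of 1.55. Pcna, the clamp, had 9.56, 9.52, 9.59 and 9.56 in the iPS cell lines, 9.85 in ES cells and 7.58 in MEFs. It differed from MEFs by 1.98 (SE 0.13, adjusted p = 1.9e-07 from limma), or 3.94-fold. Pcna was steady among the iPS cell lines, and all 4 lay below ES cells. Among the loader subunits, Rfc5 had 9.90, 10.26, 10.13 and 10.06 in the iPS cell lines, 10.05 in ES cells and 7.53 in MEFs, a difference of 2.56. Rfc1, the largest loader subunit, had 10.09, 9.92, 10.17 and 10.21 in the iPS cell lines, 9.98 in ES cells and 8.55 in MEFs, a difference of 1.55. Rfc4 had 9.90, 10.13, 10.05 and 9.92 in the iPS cell lines, 10.14 in ES cells and 8.54 in MEFs, a difference of 1.46. For these 3 loader genes every iPS cell line lay above the single MEF array. Rfc2 had 10.88, 11.06, 11.03 and 10.86 in the iPS cell lines, 10.68 in ES cells and 9.996 in MEFs, a difference of 0.96 (adjusted p = 0.00013 from limma) just under 2-fold.

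Polymerase and primase genes were higher in 5 of 6 tested cases, with a median difference of 1.67. Pold1, the catalytic subunit of polymerase delta, had 10.61, 11.02, 10.96 and 10.998 in the iPS cell lines, 10.80 in ES cells and 8.42 in MEFs. It differed from MEFs by 2.48 (SE 0.17, adjusted p = 2.6e-07 from limma), and line #4 was the lowest iPS cell line. Pole, the catalytic subunit of polymerase epsilon, had 8.63, 8.57, 8.88 and 8.74 in the iPS cell lines, 8.68 in ES cells and 6.57 in MEFs, a difference of 2.13. Pola2, the accessory subunit of polymerase alpha, had 9.05, 9.26, 9.02 and 9.28 in the iPS cell lines, 9.02 in ES cells and 7.34 in MEFs, a difference of 1.81. Subunits of all 3 replicative polymerases were therefore among the genes that rose. Pold2, an accessory subunit of polymerase delta, had 10.33, 10.20, 10.29 and 10.06 in the iPS cell lines, 10.30 in ES cells and 8.68 in MEFs, a difference of 1.54. Of the primase genes Prim2, the large subunit, was called at 1.41, and Prim1, the small subunit that makes the primer, had 7.09, 7.14, 6.92 and 7.20 in the iPS cell lines, 7.20 in ES cells and 6.32 in MEFs, a difference of 0.77 (adjusted p = 0.00095 from limma) below 2-fold. The MEF signal of Prim1 lay close to 6.30, the lowest signal above background on that array. Pole was dim in MEFs as well, so both differences are compressed.

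Of the genes for single-strand binding and Okazaki fragments, 4 of 5 were higher, with a median difference of 2.45. Rpa2, the middle subunit of the single-strand binding complex, had 9.81, 10.10, 9.98 and 10.02 in the iPS cell lines, 9.94 in ES cells and 7.35 in MEFs. Its difference from MEFs was 2.63 (SE 0.15, adjusted p = 4.9e-08 from limma), or 6.19-fold. Rpa1, the large subunit, had 12.39, 12.32, 12.40 and 12.44 in the iPS cell lines, 12.25 in ES cells and 10.79 in MEFs, a difference of 1.59. Rpa3, the small subunit, had 10.41, 10.21, 10.30 and 10.17 in the iPS cell lines, 10.51 in ES cells and 9.52 in MEFs, a difference of 0.75 (adjusted p = 0.00095 from limma) that was not called. The 3 subunits of 1 complex thus differed from MEFs by unequal amounts, although the difference between them was not tested. Lig1, the ligase that seals Okazaki fragments, had 10.94, 10.83, 10.92 and 10.96 in the iPS cell lines, 10.78 in ES cells and 8.45 in MEFs, a difference of 2.46. Fen1, the nuclease that trims their flaps, had 11.17, 10.86, 11.14 and 11.22 in the iPS cell lines, 10.98 in ES cells and 8.65 in MEFs, a difference of 2.45.

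Among the enzymes of nucleotide supply 3 of 4 were higher, with a median difference of 1.25, the lowest median of the 7 role groups. Rrm2, the regulated subunit of ribonucleotide reductase, had 9.70, 9.89, 10.10 and 9.90 in the iPS cell lines, 9.56 in ES cells and 7.44 in MEFs, a difference of 2.46 (SE 0.16, adjusted p = 1.6e-07 from limma). Rrm1, the large subunit of the same enzyme, had 9.75, 9.45, 9.77 and 9.78 in the iPS cell lines, 9.58 in ES cells and 8.91 in MEFs, a difference of 0.77 (adjusted p = 0.0014 from limma). Rrm1 was above MEFs in all 4 lines but below 2-fold. Tk1, the thymidine kinase of S phase, had 9.83, 10.11, 10.14 and 10.14 in the iPS cell lines, 9.89 in ES cells and 8.79 in MEFs, a difference of 1.26. Tyms, thymidylate synthase, had 10.98, 10.91, 10.79 and 10.81 in the iPS cell lines, 11.05 in ES cells and 9.64 in MEFs, a difference of 1.23.

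**Figure D4:**
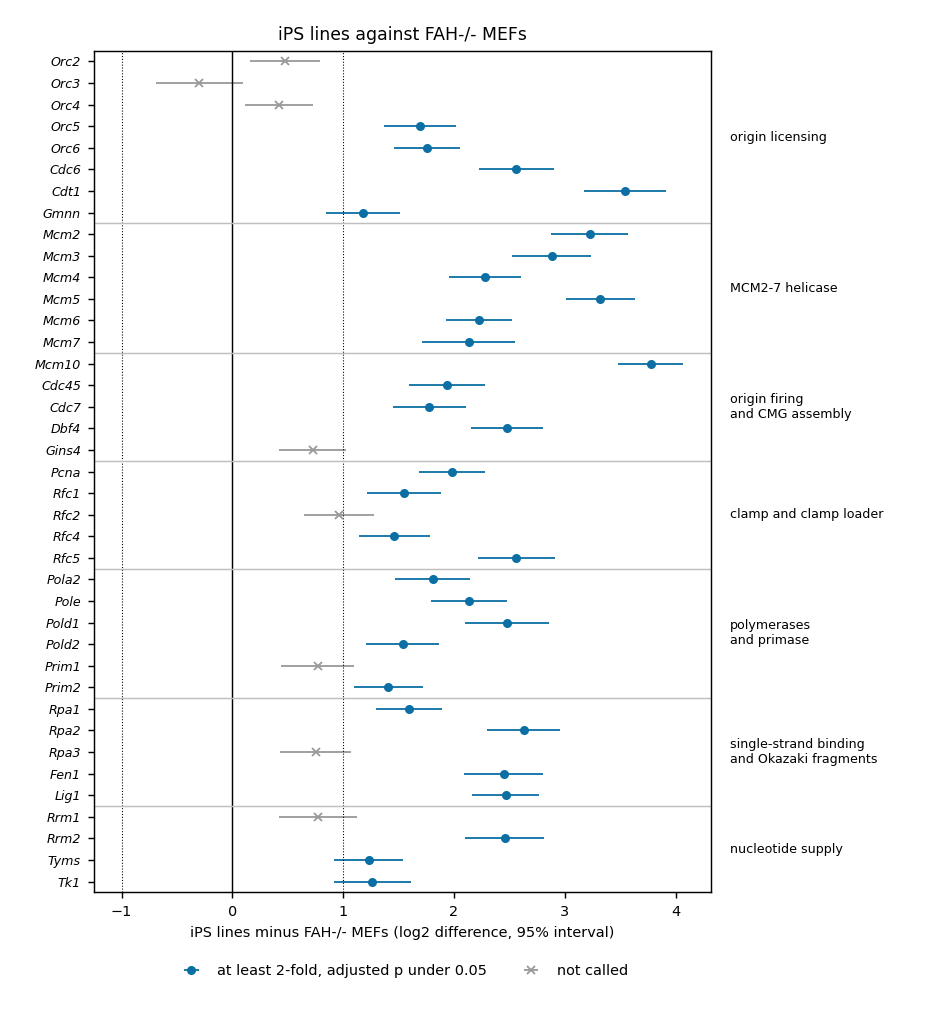
Log2 difference between the iPS cell lines (n = 4) and FAH-/- MEFs (n = 1) with its 95% interval from limma for the 39 tested members, by role. Circles mark the 31 members called higher, crosses the 8 not called, and dotted lines mark 2-fold.

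Where members had several probes above background, the sign against ES cells differed between probes of Cdc6, Lig1, Mcm6, Prim2, Rfc4 and Tyms. Against MEFs all such probes of a member agreed in sign, while the size differed between probes of some genes. Mcm6 differed by 2.23, 2.57 and 2.38 on its 3 brighter probes and by 0.97 on a dim one, and the other probes of Orc5 (1.57), Rpa2 (2.17), Rrm2 (2.12) and Prim2 (1.45) lay near the value of the probe used. Lig1 differed by 2.46 on the probe used and by 1.52, 1.15 and 0.53 on dimmer probes. Differences over 1 on the log2 scale between probes were also seen for Mcm10 (2.35 on its other probe), Mcm4 (0.88 and 0.83), Cdc6 (0.33 and 0.27) and Tyms (down to 0.01). With the mean of all probes in place of the brightest, 27 members were called higher, and Cdc6, Cdc7, Tyms and Tk1 were no longer called.

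Genes outside the 44 members that act at the fork or around it were taken from lists of known function. Of 22 tested fork and initiation genes 11 were higher in iPS cells and 1 lower, with a median log2 difference of 0.99, against 1.81 for the members and 0.03 for all genes. Among the 11, Recql4 was not above background in MEFs. Timeless, a fork protection factor, differed by 2.53, Atad5, which unloads PCNA, by 2.36, Pold3, a subunit of polymerase delta, by 2.29, and Chtf18, of an alternative clamp loader, by 2.26. Pold4, named as the 1 gene of this list called lower, the small subunit of polymerase delta, went the other way and was lower in the iPS cell lines, with 6.61, 6.54, 6.73 and 6.49, against 6.94 in ES cells and 8.81 in MEFs, a difference of -2.22 (SE 0.15, adjusted p = 1.5e-07 from limma). Of 6 chromatin assembly genes 4 were higher (median 2.39), led by the histone chaperone Nasp (3.15), the CAF-1 subunit Chaf1b (2.96) and Uhrf1 (2.76), which guides maintenance methylation behind the fork. Of 8 further nucleotide supply genes 5 were higher (median 1.44), among them Dctpp1 (2.93), which clears unwanted dCTP, Umps (1.80) and Cad (1.71) of pyrimidine synthesis and Dut (1.73), which removes dUTP.

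Some regulators of S phase entry moved too. Of 18 tested genes of the E2F and S phase entry list 9 were higher and 0 lower, with a median difference of 1.02. Mybl2, itself an E2F target, had 11.58, 11.76, 11.78 and 11.68 in the iPS cell lines, 11.60 in ES cells and 6.43 in MEFs, a difference of 5.27 (SE 0.14, adjusted p = 2.9e-10 from limma). Ccne1, which encodes cyclin E1, differed by 3.32, E2f4 by 2.19 and Skp2, which targets the inhibitor p27 for degradation, by 1.55. E2f5 was called higher by 1.26, while E2f1 (0.22), E2f2 (0.96), E2f3 (0.21), E2f6 (-0.15) and E2f7 (0.18) were not called. E2f2 and E2f7 were not above background in MEFs. The pocket protein genes Rb1 (-0.39) and Rbl1 (-0.15) were not called either. Of 6 tested CDK inhibitor genes 5 were lower and 0 higher (median -2.20), led by Cdkn2b (-3.87), Cdkn1c (-3.15), Cdkn2a (-2.71) and Cdkn1a (-1.69). Cdkn2b had 7.41, 7.72, 7.25 and 7.51 in the iPS cell lines, against 7.43 in ES cells and 11.34 in MEFs. Mitosis markers were higher in 7 of 8 tested cases (median 1.72), among them the kinase Aurka (2.43) and the checkpoint gene Bub1b (1.88). Thus mitosis genes moved with the replication genes, and the part of cell cycle distribution in the result was not tested. Fibroblast markers moved the other way, with 13 of 15 lower and 0 higher. Their summed signal above background was 1081 to 1638 units in the iPS cell lines and 787 in ES cells, against 66762 in MEFs. At most 10 of the 15 markers were above background on a pluripotent array, and Col1a2 was on none of the iPS arrays, and the part of residual feeder or fibroblast RNA in the result was not tested.

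OG2 ES cells were set against MEFs first as 1 array against 1 array, described without a test. In ES cells 30 of the 39 members were at least 2-fold higher and 0 at least 2-fold lower, against 14.6% and 15.2% of all 9623 genes. The median difference was 1.88 for the members and 0.02 for all genes. Mcm10 (3.55), Cdt1 (3.32) and Mcm2 (3.23) showed the largest differences, and Orc3 (-0.19), Orc4 (0.26) and Gins4 (0.34) were among those under 2-fold. As a contrast of the limma fit over all 6 arrays, in which the spread of the iPS cell lines stood for that of the lone arrays, 30 members were called higher and 0 lower, against 13.2% and 13.7% of all 10681 genes. This contrast was added after the data were seen. The comparisons of iPS cells and of ES cells with MEFs share the MEF array.

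Between the iPS cell lines and ES cells, 0 of the 39 members were called in either direction, against 0.449% of all 10681 genes called higher and 0.543% called lower in the iPS cell lines. The split over all genes was 48 higher and 58 lower, and 68 higher and 40 lower with median scaling. The median difference was 0.07 for the members and 0.02 for all genes. At an unadjusted p under 0.05 limma gave 3 members, against 18.4% of all genes. The normalized scale compresses differences of dim probes such as those of Orc2, Orc3, Orc4, Gmnn and Prim1, so their bounds are not bounds on RNA. On this scale the 95% interval of the difference lay within 2-fold for 38 members and within 1.5-fold for 30. The matching shares over all genes are not given, so these counts are not read as a trait of the members. The exception at 2-fold was Cdc7, whose difference was 0.78 (1.72-fold, SE 0.15, 95% interval 0.45 to 1.11, adjusted p = 0.015 from limma). All 4 iPS cell lines exceeded ES cells for Cdc7, and the difference passed the adjusted p but stayed below 2-fold. With lines #4 and #7 alone the difference was 0.89 with an adjusted p of 0.15 from limma, in a fit with fewer arrays, and with the mean of its probes, which brings in a probe not above background on any array, the difference was 0.27 (adjusted p = 0.21). Mcm5 (0.41, adjusted p = 0.14 from limma) and Gins4 (0.38, adjusted p = 0.16) followed without passing the test. Pcna showed the largest difference in the other direction, -0.29 (adjusted p = 0.28 from limma). On the probe used, all 4 iPS cell lines lay above ES cells for 12 members, against 29.2% of all genes, and below for 6, against 26.2%. These counts depend on the probe. On another probe above background, all 4 lines lay below ES cells for Mcm6 and Lig1, which are among the 12. For Rfc4 and Prim2, among the 6, all 4 lay above ES cells on another probe. Of the further genes of the fork, chromatin assembly, nucleotide supply and S phase entry, 0 were called against ES cells, and Pold3 was lower in the iPS cell lines by -0.68 (adjusted p = 0.027 from limma), below 2-fold. Among the CDK inhibitor genes 0 were called, and Cdkn1c exceeded the ES level in the iPS cell lines by 0.68 (adjusted p = 0.020 from limma), also below 2-fold. Of the 8 tested mitosis markers 1 was called. It was Plk1, a mitotic kinase, with 7.37, 7.63, 7.52 and 7.48 in the iPS cell lines, against 10.82 in ES cells, a difference of -3.32 (SE 0.15, adjusted p = 2.2e-07 from limma). The MEF array gave 6.43 for Plk1, so the iPS cell lines lay nearer to MEFs than to ES cells on this probe. Pold3, Cdkn1c and Plk1 were named here after their values were seen.

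**Figure D5:**
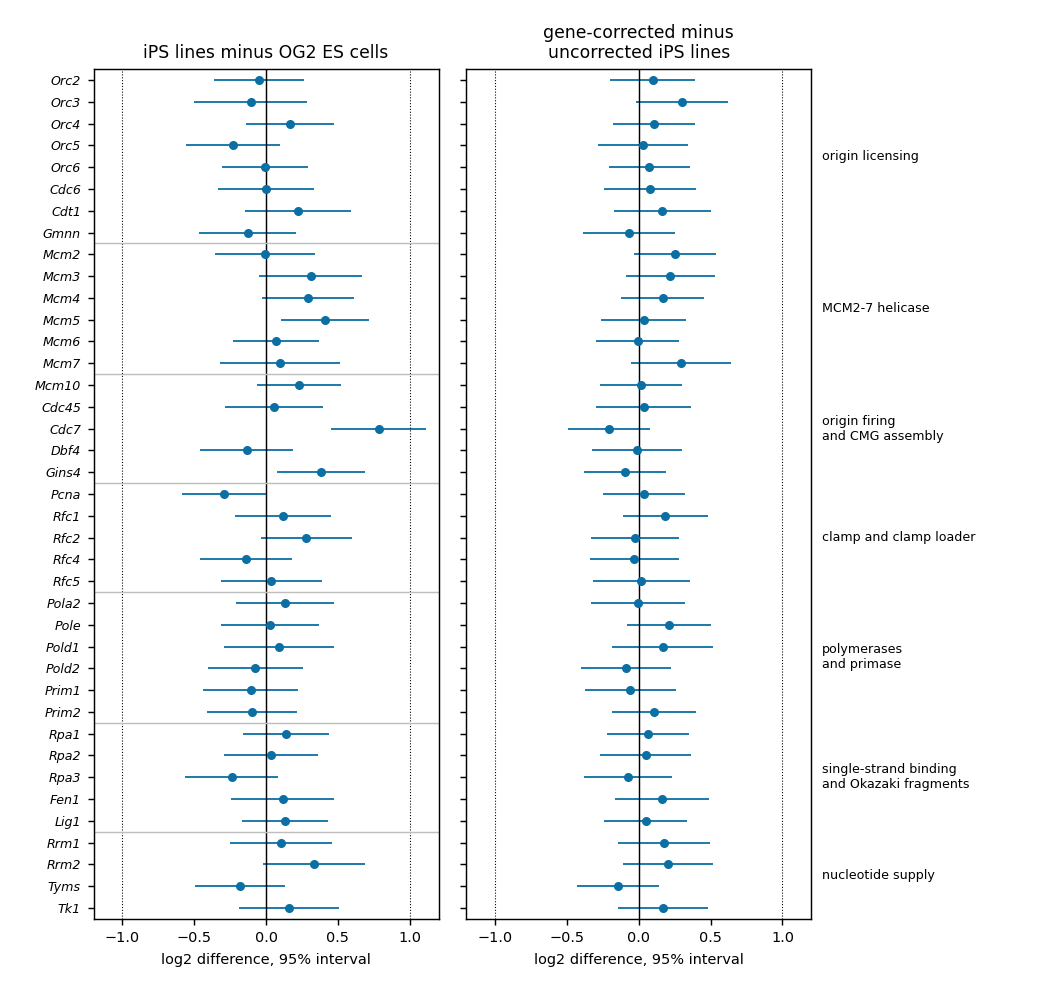
Log2 differences with 95% intervals from limma for the 39 tested members, between the iPS cell lines (n = 4) and OG2 ES cells (n = 1) at left and between gene-corrected lines #7.1 and #7.2 and uncorrected lines #4 and #7 (n = 2 each) at right. Dotted lines mark 2-fold on the normalized scale, which is compressed for dim probes, and only the interval of Cdc7 at left reaches it.

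Between gene-corrected and uncorrected lines no gene at all was called, replication genes included. Of the 39 members 0 were called between the gene-corrected lines and the uncorrected lines, against 0% of all 9795 genes, and 0 members reached an unadjusted p under 0.05 in limma, against 4.56% of all genes. The lowest adjusted p was 0.94. The intervals of the difference ran from -0.49 to 0.64 at their widest, so a 2-fold change on the normalized scale lay outside every one. For dim probes such as those of Orc2, Orc3, Orc4, Gmnn and Prim1 this scale is compressed, so a 2-fold change in RNA is not excluded. Orc3 showed the largest difference, 0.30, with a mean of 6.67 in the gene-corrected lines and 6.36 in the uncorrected lines, followed by Mcm7 with 0.29, from means of 8.94 in the gene-corrected lines and 8.65 in the uncorrected lines. Leaving out 1 line at a time, the difference of Orc3 ran from 0.17 (without line #7.1) to 0.43 (without line #7.2) and that of Mcm7 from 0.10 (without line #4) to 0.48 (without line #7), so their size and order depended on single lines. Both gene-corrected lines lay above both uncorrected lines for 15 members, among them Mcm2, Mcm3, Mcm4, Mcm7, Rrm1, Rrm2 and Tk1, against 17.3% of all genes. Cdc7, Gins4 and Tyms lay the other way, 3 members, against 16.7% of all genes. Line #4 was the lowest of the 4 lines for 17 of the 39 members, line #7 for 11, line #7.1 for 5 and line #7.2 for 6. The shares over all genes are not given here, so these counts are not read as a trait of the members.

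The iPS cell lines differed little from each other. The SD over the 4 lines ran from 0.03 for Mcm10 to 0.24 for Mcm7, with a median of 0.12 over the members and 0.13 over all tested genes. No member was 2-fold apart in a pair of single lines. Between line #7.1 and line #7 the differences ran from -0.24 for Pola2 to 0.36 for Orc3, and 0.111% of all 9046 genes were at least 2-fold apart. Between line #7.2 and line #7 they ran from -0.29 for Gmnn to 0.36 for Fen1, with 0.011% of 9053 genes at least 2-fold apart. Between lines #4 and #7 they ran from -0.42 for Pold1 to 0.31 for Fen1, with 0.439% of 9118 genes at least 2-fold apart. These pairs share line #7 and have no replicate. Median scaling shifted the median of all genes in these pairs to between 0.13 and 0.16, and in ES cells against MEFs to -0.20, so differences of this size depend on the scaling.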

How the data were processed

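Total RNA of each culture was amplified into labeled cRNA and hybridized to 1 array. The deposited file of each sample holds the authors' signal intensity of every probe, exported from BeadStudio with the background still included. The deposited series table holds the intensity that the authors obtained by subtracting background and normalizing with a cubic spline in the same software, with the version not given in the sources used here. Exported values were corrected by normexp with an offset of 50, put through quantile normalization and expressed as log2 with limma 3.58.1 in R 4.3.3. The added offset compresses differences of dim probes. The background of an array was the exported signal where the authors' background-subtracted value is 0, with the noise SD taken from the probes below it. Each gene was represented by its brightest probe, named from the platform annotation (23978 of 25697 probes had 1 gene, and 23962 matched RefSeq GRCm38.p6 by gene ID), and was tested where above background on at least 1 array. A fold against a group not above background was taken against the lowest signal above background and written as at least N-fold. The 4 iPS cell lines, the MEFs and the ES cells entered 1 limma fit (3 residual degrees of freedom), and the gene-corrected and uncorrected lines another (2), with Benjamini-Hochberg adjustment over all tested genes. The spread of the iPS arrays stood for that of the lone MEF and ES arrays. Pairs of 1 array each were described without a test, and ES cells against MEFs also as a contrast of the first fit. Precision is limited by the number of arrays. The files give no scan date or chip position, so batches could not be examined. The members and gene lists were chosen with earlier results of these data known. Members named with values on each array were, in each role group, up to 4 called ones with the largest difference from MEFs and the one with the smallest. From each further list, up to 4 called genes by size of difference were named. Pold4, the other E2F genes, Rb1 and Rbl1 were named beyond this rule after their values were seen. Alternatives changed the background correction, normalization, probe choice, filter, threshold and the lines included.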

Additional observations from a re-analysis of the deposited data

Results flagged for a closer look

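Among the 39 tested members, 3 had 1 iPS cell line apart from the other 3 by Dixon's test at the 95% level. Chance flags about 1 in 20 groups. Pold1 had 10.61 in line #4, against 10.96 to 11.02 in the other lines. Tk1 had 9.83 in line #4, against 10.11 to 10.14 in the other lines. Rrm1 had 9.45 in line #7, against 9.75 to 9.78 in the other lines. The cause was not tested.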

How the results depend on the processing

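The count of 31 members called higher in iPS cells against MEFs ran from 27 (mean of the probes) to 38 (adjusted p alone, against 27.8% of all genes), was 31 without each line in turn, with lines #4 and #7 only and with line #7 and its subclones averaged, and 0 members were called lower under any alternative run. The median difference from MEFs was 1.70 without background correction, 1.54 with median scaling, 1.55 with the mean of the probes, 1.96 with genes above background on every array, 1.88 with lines #4 and #7 only, and 1.77 to 1.85 without each line in turn. Against ES cells 1 member, Cdc7, was called higher with a 1.5-fold threshold, against 197 of all 10681 genes. With the adjusted p alone 1 member was higher, against 214 of these genes. The median difference from ES cells was 0.21 with median scaling. Between gene-corrected and uncorrected lines the median was 0.05, but 0.13 with median scaling, 0.058 with the mean of the probes and 0.032 to 0.099 without each line in turn. Of 574 recomputed values of single members 0 reversed, 7 lost their call (Cdc6, Cdc7, Tyms and Tk1 with the mean of the probes, Tyms and Tk1 with median scaling, Gmnn without background correction) and 1, Prim1, gained it with the authors' values. The cause was not tested. No paired analysis was made, because both gene-corrected lines descend from line #7 and line #4 has no gene-corrected counterpart. The comparison of gene-corrected with uncorrected lines therefore also holds the difference between lines #4 and #7. Dim signal limits Orc1, Pola1, Orc2, Gmnn and Prim1, and single MEF and ES arrays limit both comparisons. Orc2 and Gmnn, which entered the test only through the pluripotent arrays, are among the 38 members that passed the adjusted p alone.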
